A study of Mus musculus with 2 samples.

Results

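The crossover formation genes are 8 genes of meiotic recombination, Hfm1, Msh4, Msh5, Rnf212, Ccnb1ip1, Cntd1, Mlh3 and Tex11. They were taken by symbol from the 20476 genes of the table, and all 8 had a row there. The study profiled testes of adult miR-202-/- mice and of adult WT mice, both given as strain C57BL/CJ;ICR, by droplet single-cell RNA sequencing with 3′ chemistry. Each genotype had 1 library, of total testicular cells from which debris had been sorted away. The libraries share 1 table, in which every barcode name ends in a mark, 1 or 2. Which mark belongs to which genotype is stated neither by the labels nor by the table, so knockout and WT were not compared. Values stand side by side for marks 1 and 2, which cannot serve as replicates, and no test was possible with 1 library each.

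In the first meiotic prophase the germ cell breaks its own DNA, and a few of the breaks on each chromosome pair are repaired as crossovers, the exchanges that hold homologous chromosomes together until they part. HFM1 unwinds DNA at early repair intermediates, the MSH4-MSH5 dimer stabilises joined molecules, RNF212 and CCNB1IP1 (also called HEI10) regulate which sites keep these factors, CNTD1 promotes the late step, and MLH3 belongs to the nuclease of the final crossover. TEX11, encoded on the X chromosome, belongs with the early proteins on the chromosome axes. In the male, breaks form in leptotene and zygotene spermatocytes and crossovers are completed in pachytene.

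Barcodes were placed in 9 germ stages by summed markers of each stage, none of which is a crossover formation gene. By gate there were 254 spermatogonia, 155 cells entering meiosis (with the meiotic inducer Stra8), 213 leptotene-zygotene spermatocytes (Dmc1, Prdm9), 463 early and 214 late pachytene spermatocytes (Piwil1, Tdrd1), 355 diplotene or dividing spermatocytes (Ccna1, Plk1), 1028 early and 1589 later round spermatids (Acrv1, Spaca1) and 7387 elongating spermatids (Prm1, Tnp2). A gate is a range of a marker sum, not a proven cell type. Between 1 and 453 barcodes of a stage lay within 20% above its cut. For both round spermatid stages this is the cut of the early markers, and closeness to the line between them was not counted. Early and late pachytene are divided by the sum of leptotene-zygotene markers, and 202 of 677 pachytene barcodes lay within 20% of that line. These markers had medians of 10.0 and 4.78 per 10000 UMIs in early and late pachytene. The gate itself thus tends to place genes that follow them lower in late pachytene. Levels are UMIs (unique molecular identifiers, counted transcript molecules) scaled to the same total in every stage, written CPM, with exact Poisson 95% intervals. Ratios set a stage over the one before it, with exact conditional 95% intervals, and all intervals cover counting error only.

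The rule for a call asked for a ratio of 2-fold or more that both marks showed in 1 direction, and for 30 or more UMIs per mark in the 2 stages together. Median UMIs per barcode ran from 7579 in leptotene-zygotene to 56478 in late pachytene, so that equal CPM in 2 stages is not an equal number of molecules per cell. In 937 barcodes in the Sertoli gate, somatic cells that do not enter meiosis, the levels give an idea of free RNA. Expression by the Sertoli cells themselves cannot be told apart from it. Sertoli barcodes are shallower than those of pachytene and round spermatids, so UMIs per barcode stand beside CPM where the 2 are set against each other. Whether a level changed through RNA per cell or through the mix of cells in a gate cannot be told apart.

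The 8 genes reached their highest levels in 4 different stages. Tex11 was highest in spermatogonia, Msh5 in cells entering meiosis, Hfm1 and Msh4 in leptotene-zygotene spermatocytes, and Rnf212, Ccnb1ip1, Cntd1 and Mlh3 in early pachytene, by the mean of the marks. Under single marks, Tex11 and Msh5 were highest in leptotene-zygotene under mark 2 and Rnf212 in cells entering meiosis under mark 1. With TMM factors or DESeq2 size factors in place of the stage totals, Msh4 was highest in elongating spermatids. TMM factors also placed Tex11 highest in leptotene-zygotene. With an estimate of free RNA subtracted, Tex11 was highest in leptotene-zygotene, at 209 CPM under either mark against 196 and 177 CPM in spermatogonia. Rnf212 was then highest in cells entering meiosis by the mean of the marks, at 39.1 and 23.0 CPM against 24.8 and 30.8 CPM in early pachytene. Over all the alternatives run, 6 to 8 of the 8 genes kept their stage. For Ccnb1ip1, Cntd1 and Mlh3 the interval of the highest stage stood clear of every other stage under both marks, and for Hfm1 under mark 1 only.

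**Figure D1:**
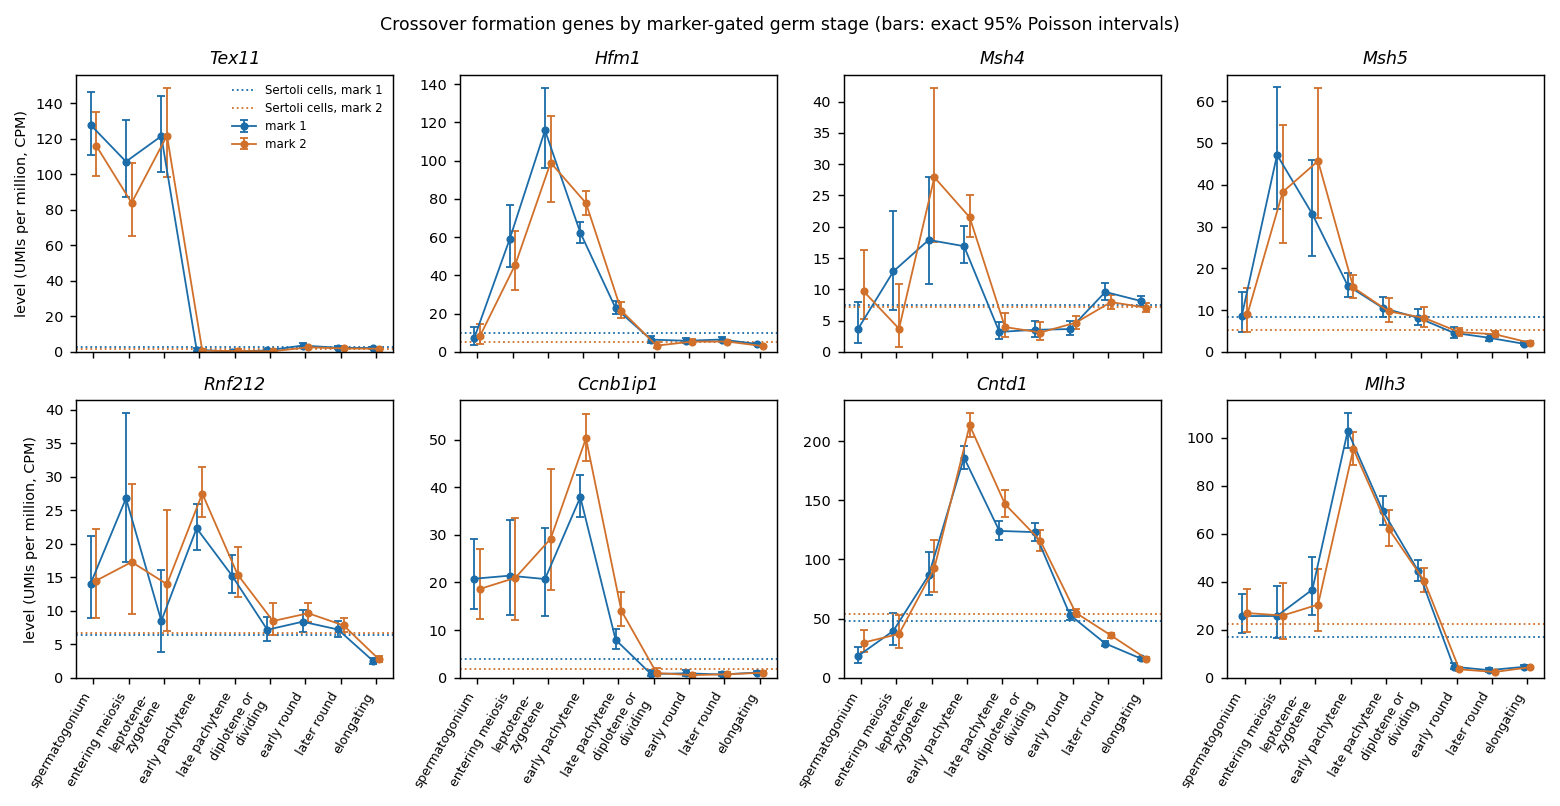
Level of each gene (y axis, CPM, UMIs scaled to the same total in every stage) in the 9 germ stages (x axis), with library mark 1 in blue and mark 2 in orange, exact Poisson 95% intervals as bars, and Sertoli cell levels as dotted lines. Tex11 stands at 83.9 to 128 CPM in the 3 earliest stages and at 1.16 CPM or less in early pachytene, where Cntd1 stands at 186 and 213 CPM and Mlh3 at 103 and 95.3 CPM.

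Tex11 (chromosome X, 100838648 to 101059667, reverse strand, GRCm38) was present before and at the start of meiosis and nearly absent from early pachytene on. Spermatogonia had 128 (111 to 146) and 116 (99.1 to 135) CPM under marks 1 and 2, cells entering meiosis 107 and 83.9 CPM, and leptotene-zygotene spermatocytes 121 (101 to 144) and 122 (98.7 to 149) CPM. In early pachytene it had 9 UMIs over 210 barcodes and 5 UMIs over 253 barcodes, which is 1.16 (0.531 to 2.20) and 0.636 (0.207 to 1.49) CPM. These levels are 105-fold (53.5 to 234) and 191-fold (79.2 to 603) lower than in leptotene-zygotene. Pachytene is the stage at which meiotic silencing of the X and Y is textbook knowledge, and its part in the drop of Tex11 was not tested. In late pachytene Tex11 had 1 and 2 UMIs and in diplotene or dividing cells 7 and 2 UMIs, too few for a ratio between them.

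Some Tex11 transcript was counted again in round spermatids. Early round spermatids had 3.56 (2.58 to 4.79) and 2.57 (1.89 to 3.40) CPM, against 0.771 and 0.325 CPM in diplotene or dividing cells, and the ratios of 4.62 (2.06 to 12.2) and 7.89 (2.07 to 67.0) were called higher. That level was at most 3.56 CPM, beside 2.76 (1.11 to 5.70) and 1.34 (0.275 to 3.90) CPM in Sertoli cells, whose intervals overlap it. Per barcode it was 0.114 and 0.0736 UMIs in early round spermatids, against 0.0152 and 0.00630 UMIs in Sertoli cells. Later round spermatids had 2.29 and 1.88 CPM and elongating spermatids 2.13 and 1.77 CPM.

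Hfm1 (chromosome 5, 106840192 to 106926321, reverse strand), the helicase, rose on entry into meiosis, was highest in leptotene-zygotene and fell in late pachytene and again after it. It had 7.34 and 8.29 CPM in spermatogonia, 58.9 (44.4 to 76.7) and 45.7 (32.1 to 62.9) CPM in cells entering meiosis, 116 (96.3 to 138) and 99.0 (78.2 to 124) CPM in leptotene-zygotene and 62.3 and 77.8 CPM in early pachytene. The level then stood at 22.8 and 21.6 CPM in late pachytene and at 6.39 and 3.25 CPM in diplotene or dividing cells. Of these steps 3 were called. Cells entering meiosis were 8.03-fold (4.25 to 16.5) and 5.51-fold (2.81 to 11.6) above spermatogonia, where Hfm1 had 0.096 and 0.0930 UMIs per barcode, beside 9.87 and 4.90 CPM or 0.0542 and 0.0231 UMIs per barcode in Sertoli cells. Late over early pachytene gave 0.366 (0.306 to 0.437) and 0.277 (0.222 to 0.344), and diplotene or dividing over late pachytene 0.280 (0.204 to 0.379) and 0.151 (0.0883 to 0.246). The step from entry into leptotene-zygotene, 1.97 (1.42 to 2.75) and 2.17 (1.45 to 3.30), missed 2-fold under mark 1 only.

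Msh4 and Msh5 encode the partners of 1 dimer, and they were called at different steps. Msh5 (chromosome 17, 35028605 to 35046745, reverse strand) had 8.56 and 8.98 CPM in spermatogonia, 47.1 (34.3 to 63.3) and 38.3 (25.99 to 54.3) CPM in cells entering meiosis, 32.96 (22.96 to 45.8) and 45.7 (32.0 to 63.2) CPM in leptotene-zygotene, and 15.9 and 15.4 CPM in early pachytene. It was called higher on entry into meiosis, by 5.51-fold (2.96 to 10.9) and 4.26-fold (2.17 to 8.87), and lower in early pachytene over leptotene-zygotene, at 0.481 (0.328 to 0.722) and 0.337 (0.231 to 0.504). From there it went on at 10.5 and 9.68 CPM in late pachytene, 8.15 and 8.13 CPM in diplotene or dividing cells and 1.90 and 2.17 CPM in elongating spermatids, with no further step called.

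The call of Msh5 in early pachytene was lost with TMM factors, DESeq2 size factors, gate cuts divided by 1.5, barcodes of at least 10000 UMIs and pachytene divided at 8. Under these settings the mean log2 ratio of Msh5 lay between -1.14 and -0.46, against -1.31 as reported. The entry step of Msh5 was lost with barcodes of at least 10000 UMIs, at a mean log2 ratio of 1.60 in place of 2.28.

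Msh4 (chromosome 3, 153857149 to 153906138, reverse strand) was scarce everywhere, with 3 to 169 UMIs in any stage up to late pachytene under a mark. It had 3.67 and 9.67 CPM in spermatogonia and 12.9 (6.64 to 22.5) and 3.70 (0.763 to 10.8) CPM in cells entering meiosis, where the marks moved in opposite directions. In leptotene-zygotene it had 17.9 (10.8 to 27.9) and 27.9 (17.5 to 42.3) CPM and in early pachytene 16.9 (14.1 to 20.05) and 21.5 (18.4 to 25.01) CPM. Late pachytene held 3.18 and 3.96 CPM, and this drop, at 0.188 (0.117 to 0.293) and 0.184 (0.107 to 0.300) of early pachytene, was the 1 call for Msh4. Across the same boundary Msh5 had ratios of 0.660 and 0.629 and was not called. Sertoli cells had 7.503 and 7.12 CPM of Msh4, or 0.0412 and 0.0336 UMIs per barcode. Spermatogonia had 0.048 and 0.109 UMIs per barcode and later round spermatids 0.310 and 0.234. Of the Msh4 UMIs of spermatogonia 100% and 40.7% were assigned to free RNA, estimated as described further on, and the estimate was not made for spermatids.

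Promoter windows of RefSeq (250 bases before to 50 after the start, GRCm38.p6) were found for 7 of the 8 genes, all but Tex11, and searched on both strands for the motif CNCCTCAG, reported for the meiotic inducer STRA8. It lay in the windows of Hfm1, with 2 matches, and Msh5, with 1 match, and in none of Msh4, Rnf212, Ccnb1ip1, Cntd1 and Mlh3. Hfm1 and Msh5 were also the pair called higher on entry into meiosis, where Msh4 had too few UMIs to be called. A link of the motif with entry was not tested. Only RefSeq starts were searched, so other promoters of these genes may have been missed. The windows of Hfm1, Msh4 and Ccnb1ip1 end at positions 106926140, 153905141 and 50795978. They lie inside reverse-strand genes that reach 106926321, 153906138 and 50807732 in GENCODE. The Msh5 match also lies inside its gene, which reaches 35046745. The Hfm1 and Msh5 matches are therefore before the RefSeq start but not outside the GENCODE genes. The end of the Rnf212 window matched no GENCODE transcript of that gene. Of all 32851 windows of that length 7.94% hold CNCCTCAG. The Hfm1 matches start 66 bases before the RefSeq start on the reverse strand and 6 bases before it on the forward strand, and the Msh5 match starts 82 bases before on the reverse strand. The 2 stretches are printed, from 250 bases before to 10 after the start, because they carry this motif, shown in capitals in either orientation. They lie at chr5:106925881-106926140 and chr17:35046613-35046872, both on the reverse strand.
Hfm1: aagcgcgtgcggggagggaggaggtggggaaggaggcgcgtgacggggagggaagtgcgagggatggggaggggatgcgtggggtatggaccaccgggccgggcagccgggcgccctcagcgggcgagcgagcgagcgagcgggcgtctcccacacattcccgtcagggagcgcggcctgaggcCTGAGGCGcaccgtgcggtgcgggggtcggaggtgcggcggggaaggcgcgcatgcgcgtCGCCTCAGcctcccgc
Msh5: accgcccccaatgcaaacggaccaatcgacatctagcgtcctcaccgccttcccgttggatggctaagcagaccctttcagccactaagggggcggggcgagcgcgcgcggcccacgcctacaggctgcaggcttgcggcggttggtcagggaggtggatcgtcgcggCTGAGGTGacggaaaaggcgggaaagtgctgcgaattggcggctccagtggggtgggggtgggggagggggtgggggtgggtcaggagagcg
A match of letters is a description, and binding was not measured here.

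The regulators Rnf212 and Ccnb1ip1, both RING-finger ligases, were highest in early pachytene by the mean of the marks. For Rnf212 this held under mark 2 but not under mark 1, and not with free RNA subtracted. The interval of its highest stage overlapped those of 3 and 2 other stages under marks 1 and 2. Ccnb1ip1 fell in both steps after early pachytene. Ccnb1ip1 (chromosome 14, 50789248 to 50807732, reverse strand) had 20.8 and 18.6 CPM in spermatogonia, 21.4 and 20.98 CPM in cells entering meiosis, 20.7 (13.0 to 31.4) and 29.2 (18.5 to 43.8) CPM in leptotene-zygotene and 37.9 (33.7 to 42.5) and 50.3 (45.4 to 55.5) CPM in early pachytene. It then had 7.96 (6.07 to 10.2) and 14.1 (10.8 to 17.99) CPM in late pachytene and 0.771 and 0.976 CPM in diplotene or dividing cells, where it was counted with 7 and 6 UMIs. Both late steps were called lower. Late over early pachytene gave 0.210 (0.156 to 0.278) and 0.280 (0.212 to 0.366), and diplotene or dividing cells were 10.3-fold (4.71 to 26.8) and 14.4-fold (6.28 to 40.8) below late pachytene. That last level, 0.0335 and 0.0411 UMIs per barcode, stands beside 3.95 and 1.78 CPM or 0.0217 and 0.00840 UMIs per barcode in Sertoli cells. With gate cuts 1.5 times higher the second of these steps was not called, at a mean log2 ratio of -3.71 in place of -3.61. The gain in early pachytene over leptotene-zygotene, 1.83 (1.19 to 2.97) and 1.72 (1.13 to 2.75), was not called. It was called higher with TMM factors, gate cuts 1.5 times higher and pachytene divided at 8, at mean log2 ratios of 1.39, 1.03 and 1.22 in place of 0.83.

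Rnf212 (chromosome 5, 108729290 to 108774982, reverse strand), the SUMO ligase of the pair, was called in none of the steps of meiosis as reported, and in 3 of them under other settings. It had 14.1 and 14.5 CPM in spermatogonia, 26.8 (17.3 to 39.5) and 17.3 (9.45 to 29.0) CPM in cells entering meiosis, 8.48 (3.88 to 16.1) and 13.96 (6.97 to 24.97) CPM in leptotene-zygotene and 22.3 (19.1 to 25.9) and 27.5 (24.0 to 31.4) CPM in early pachytene. Its leptotene-zygotene levels rest on 9 and 11 UMIs, and the step from entry was called lower with mark 1 alone, at a log2 ratio of -1.66. The next step, early pachytene over leptotene-zygotene, at 2.63 (1.35 to 5.85) and 1.97 (1.08 to 4.01), missed the rule under mark 2. It passed with TMM factors, DESeq2 size factors, the mean over barcodes and pachytene divided at 8, at mean log2 ratios of 1.75, 1.38, 1.27 and 1.43 in place of 1.19. Late pachytene had 15.2 and 15.4 CPM and diplotene or dividing cells 7.16 and 8.46 CPM, or 0.311 and 0.356 UMIs per barcode, against 6.32 and 6.68 CPM or 0.0347 and 0.0315 UMIs per barcode in Sertoli cells. Of the Rnf212 UMIs of diplotene or dividing cells 11.1% and 10.7% were assigned to free RNA. This step was called lower with gate cuts 1.5 times higher and pachytene divided at 8, at mean log2 ratios of -1.65 and -1.11 in place of -0.98. The 1 step called for Rnf212 was elongating over later round spermatids, at 0.344 (0.269 to 0.439) and 0.352 (0.282 to 0.438), and it was not called with TMM factors or DESeq2 size factors, at mean log2 ratios of -0.59 and -0.49 in place of -1.52. A gene on the opposite strand inside Rnf212, 1700047L14Rik, was low in early pachytene, at 1.93 and 1.40 CPM, and highest in elongating spermatids, at 18.1 and 20.4 CPM. The sources used here do not say whether counting used the strand.

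The late factors Cntd1 and Mlh3 were the 2 genes called higher in early pachytene over leptotene-zygotene as reported, where Rnf212 and Ccnb1ip1 were called under some other settings. Cntd1 (chromosome 11, 101279012 to 101296317, forward strand), a cyclin-like protein, had 18.3 (12.4 to 26.2) and 29.7 (21.5 to 40.0) CPM in spermatogonia, 39.6 and 37.0 CPM in cells entering meiosis, 86.6 (69.8 to 106) and 92.6 (72.6 to 116) CPM in leptotene-zygotene and 186 (177 to 196) and 213 (203 to 224) CPM in early pachytene. It was still at 124 and 147 CPM in late pachytene, 123 and 116 CPM in diplotene or dividing cells and 53.05 and 54.96 CPM in early round spermatids. Leptotene-zygotene over entry gave 2.19 (1.48 to 3.29) and 2.50 (1.61 to 3.97), early pachytene over leptotene-zygotene 2.15 (1.74 to 2.68) and 2.30 (1.82 to 2.95), and early round spermatids over diplotene or dividing cells 0.431 (0.390 to 0.475) and 0.474 (0.431 to 0.523). All 3 steps were called. The first of them was lost with gate cuts 1.5 times higher or divided by 1.5 and with the mean over barcodes, at mean log2 ratios of 0.80, 0.95 and 1.04 in place of 1.23. The second was lost with barcodes of at least 10000 UMIs, with free RNA subtracted and with pachytene divided at 5, at 0.96, 0.99 and 1.02 for Cntd1 in place of 1.15.

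Counted per barcode, Cntd1 had a wide plateau. Early pachytene held 6.87 and 6.63 UMIs per barcode, late pachytene 7.49 under either mark, diplotene or dividing cells 5.35 and 4.88, and early round spermatids 1.70 and 1.58. Sertoli cells had 48.2 and 53.4 CPM, which is 0.265 and 0.252 UMIs per barcode, about the 0.240 and 0.333 UMIs per barcode of spermatogonia. With the estimate of free RNA subtracted, the spermatogonial level was 0 CPM under mark 1 and 14.6 CPM under mark 2. Cntd1 also overlaps Becn1 and Coa3, both on the opposite strand. Becn1, an autophagy gene, had 92.3 and 84.3 CPM in spermatogonia, 115 and 104 CPM in leptotene-zygotene and 135 and 126 CPM in early pachytene. Coa3, an assembly factor of mitochondrial cytochrome c oxidase, had 67.9 and 67.7 CPM in spermatogonia, 48.97 and 32.99 CPM in leptotene-zygotene, 72.9 and 79.0 CPM in early pachytene, 47.7 and 53.5 CPM in late pachytene and 102 and 121 CPM in diplotene or dividing cells. Their part in the counts of Cntd1 was not tested.

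The RefSeq window of Cntd1 was searched for AACNG, the core bound by MYB factors such as the pachytene regulator MYBL1. It holds 3 matches, starting 86, 68 and 61 bases before the RefSeq start and all on the reverse strand. They lie inside the GENCODE gene, which begins at 101279012. Over all windows the median was 2 matches, and 80.3% of windows held at least 1. The windows of all 7 genes held between 1 and 3. The stretch at chr11:101278953-101279212, forward strand, is printed for contrast with those of Hfm1 and Msh5, with AACNG in capitals in either orientation.
Cntd1: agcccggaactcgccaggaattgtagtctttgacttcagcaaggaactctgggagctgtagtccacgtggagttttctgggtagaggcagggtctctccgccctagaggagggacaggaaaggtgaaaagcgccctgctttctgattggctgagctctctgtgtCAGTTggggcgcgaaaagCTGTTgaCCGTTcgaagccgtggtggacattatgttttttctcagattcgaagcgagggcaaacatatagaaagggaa
The motif TGACGTCA, the CRE bound by CREM and its relatives, was in none of the 7 windows and in 1.79% of all, and its part TGACG was in those of Hfm1, 2 times, and Msh5, 1 time, and in 20.8% of all.

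Mlh3 (chromosome 12, 85234520 to 85270599, reverse strand) was flat until pachytene. It had 25.7 (18.5 to 34.7) and 26.9 (19.2 to 36.8) CPM in spermatogonia, 25.7 and 25.9 CPM in cells entering meiosis, 36.7 (26.1 to 50.2) and 30.5 (19.5 to 45.3) CPM in leptotene-zygotene and 103 (95.8 to 110) and 95.3 (88.6 to 102) CPM in early pachytene. Late pachytene had 69.4 and 62.1 CPM and diplotene or dividing cells 44.4 and 40.5 CPM. The step into early pachytene was 2.80-fold (2.03 to 3.97) and 3.13-fold (2.09 to 4.92), and early round spermatids, at 4.55 and 3.47 CPM, were 9.75-fold (7.34 to 13.2) and 11.7-fold (8.84 to 15.6) below diplotene or dividing cells. Both were called, and the step into early pachytene was lost with barcodes of at least 10000 UMIs, at a mean log2 ratio of 1.23 in place of 1.57. Sertoli cells had 17.0 (12.3 to 22.9) and 22.3 (16.5 to 29.4) CPM, below the leptotene-zygotene interval under mark 1 and overlapping it under mark 2. Of the Mlh3 UMIs of the 3 gates before pachytene 24.9 to 33.3% were assigned to free RNA.

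**Figure D2:**
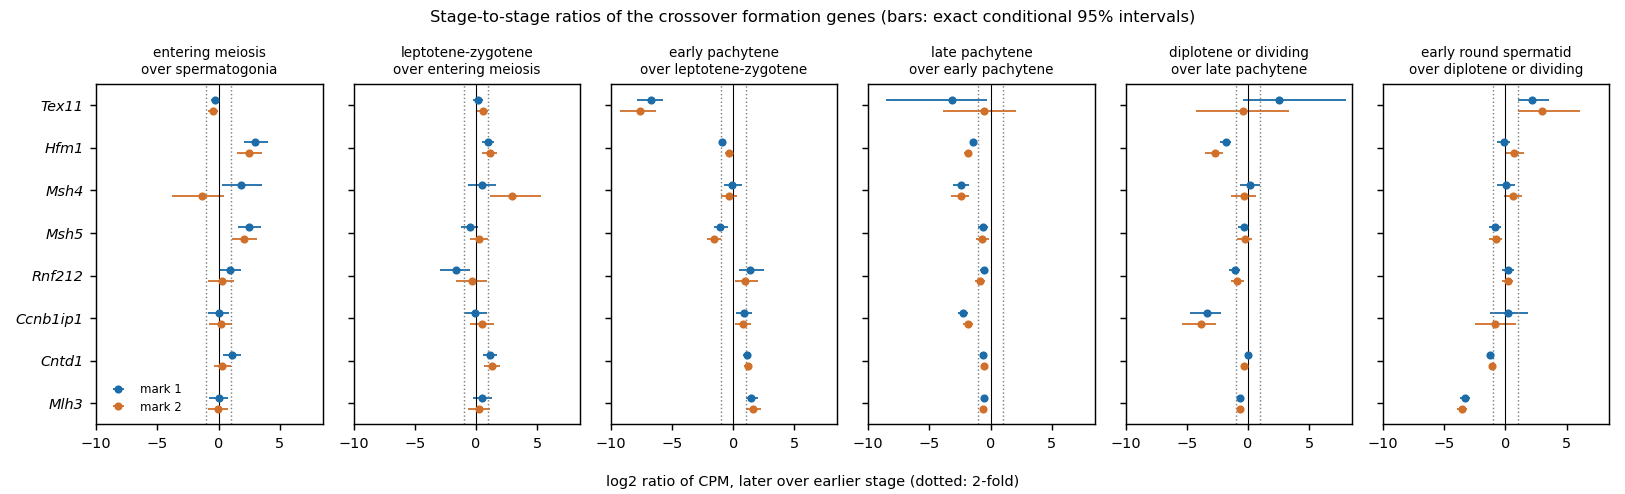
Ratio of each stage to the stage before it for the 8 genes (x axis, log2 of the ratio of CPM), with library mark 1 in blue, mark 2 in orange, exact conditional 95% intervals as bars and dotted lines at 2-fold. On entry into meiosis Hfm1 and Msh5 lie right of the line under both marks, in early pachytene Tex11 lies far left and Cntd1 and Mlh3 right, and in early round spermatids Mlh3 lies left.

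Counted over all 8 genes, 5 of the 7 calls up to early pachytene were higher and 8 of the 9 calls after it were lower. These counts were 8 of 9 and 7 of 10 with TMM factors and 6 of 7 and 7 of 10 with DESeq2 size factors. The same pooled count was not made over all genes, so it shows nothing particular to the 8. The shares of all genes stand beside each step. On entry into meiosis 2 of 7 measured genes were called higher (1.86% of all measured genes were) and 0 lower (0.521% of all). In leptotene-zygotene over entry 1 of 6 was higher (1.26% of all) and 0 lower (4.13% of all). In early pachytene 2 of 8 were higher (10.2% of all) and 2 lower (22.8% of all), and the share called lower was near that of all genes. TMM factors moved the median log2 ratio of all genes at this step by 0.58 and 0.55, and gave 4 of 8 higher (24.1% of all) and 1 lower (10.8% of all). DESeq2 size factors moved it by 0.18 and 0.20, and gave 3 higher (14.2% of all) and 1 lower (18.8% of all). The median log2 ratio of the measured members was 0.93 and 0.25 on entry, 0.35 and 0.51 in leptotene-zygotene and 0.39 and 0.22 in early pachytene, where the medians of all measured genes were 0.03 and 0.03, then 0.04 and 0.04, then -0.17 and -0.15.

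Late pachytene had 0 of 7 measured genes higher (4.42% of all) and 3 lower (9.72% of all), Hfm1, Msh4 and Ccnb1ip1. The part of the division by leptotene-zygotene markers in these 3 calls was not tested. Diplotene or dividing cells had 0 of 7 higher (5.2% of all) and 2 lower (10.3% of all), Hfm1 and Ccnb1ip1. Early round spermatids had 1 of 7 higher (23.1% of all) and 2 lower (15.6% of all). The median log2 ratio of the 7 measured genes, all but Tex11, was -0.60 and -0.84 in late pachytene and -0.64 and -0.62 in diplotene or dividing cells, where all measured genes had -0.22 and -0.21, then -0.08 and -0.10. Later round spermatids had 0 of 7 higher (9.2% of all) and 0 lower (3.11% of all), and elongating spermatids 0 of 8 higher (11.6% of all) and 1 lower (41.0% of all). At that last step TMM factors moved the median log2 ratio of all genes by 0.93 under either mark, and DESeq2 size factors by 1.01 and 1.06. With TMM factors 2 of 8 were higher (22.8% of all) and 0 lower (14.1% of all), and with DESeq2 size factors 2 were higher (24.8% of all) and 0 lower (12.3% of all). The 2 were Ccnb1ip1, at mean log2 ratios of 1.53 and 1.63 with the 2 sets of factors in place of 0.60, and Mlh3, at 1.63 and 1.73 in place of 0.70.

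Of 20 further genes of crossover formation and joint molecule processing listed for comparison, 18 were in the table. By the mean of the marks 9 of 18 were highest in cells entering meiosis, 3 in spermatogonia, 2 in leptotene-zygotene, 1 in early pachytene, 1 in late pachytene and 2 in diplotene or dividing cells. None of the 18 was called higher in early pachytene (10.2% of all measured genes were) and 5 were called lower (22.8% of all), a share near that of all genes. With TMM factors 2 were higher (24.1% of all) and 4 lower (10.8% of all). In late pachytene 6 of 17 were lower (9.72% of all). On entry into meiosis 1 of 15 was called higher (1.86% of all), the helicase gene Brip1, at 2.13-fold (1.42 to 3.22) and 4.47-fold (2.74 to 7.501). Whether the lists differ was not tested.

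Examples show the range. Exo1, an exonuclease, was called lower in leptotene-zygotene over entry, at 0.268 and 0.483, in late over early pachytene, at 0.456 and 0.465, and in diplotene or dividing over late pachytene, at 0.237 and 0.211. Fancm and Cdk2 were called lower in diplotene or dividing cells, Cdk2 at 0.461 and 0.498, and again in early round spermatids. Cdk2 encodes the kinase found with crossover factors on pachytene chromosomes.

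Prr19 and Slx4 peaked after pachytene. Prr19, which encodes a partner of CNTD1, had 42.2 and 39.5 CPM in early pachytene, 68.7 and 65.4 CPM in late pachytene and 88.4 and 101 CPM in diplotene or dividing cells. Slx4, a scaffold of nucleases, had 67.3 and 55.4 CPM, 85.5 and 73.1 CPM and 103 and 95 CPM in the same stages. Both were highest 2 gates after the top of Cntd1, and neither was called in those steps. The RecQ helicase gene Blm stayed between 42.8 and 67.5 CPM from spermatogonia to early pachytene.

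**Figure D3:**
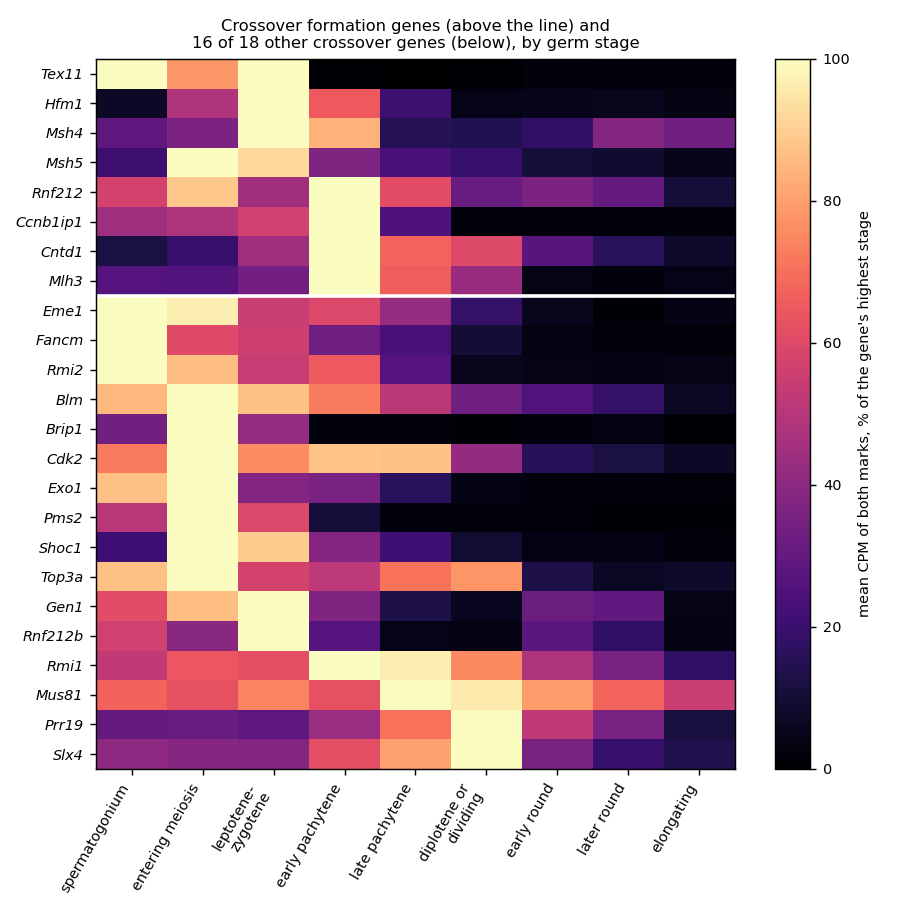
Mean CPM of both marks as a percentage of each gene's highest stage (colour, 0 to 100) for the 8 crossover formation genes above the white line and 16 of the 18 other crossover genes below it, by germ stage (x axis). Early pachytene holds the maximum of 4 of the 8 genes above the line and of 1 of the 16 below it.

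Depth per barcode differs between stages, so the share of barcodes with at least 1 UMI was also taken with every barcode thinned to 3000 UMIs. At that depth Cntd1 was found in 43.3% (36.5 to 50.3%) and 52.6% (46.2 to 58.9%) of early pachytene barcodes, against 14.3% and 13.9% of Sertoli barcodes. Without thinning it was in 99.5% and 99.2% of early pachytene barcodes, at medians of 34231 and 28134 UMIs, and in 22.1% and 20.6% of Sertoli barcodes, at medians of 4643 and 4109 UMIs. Mlh3 was found in 25.2% (19.5 to 31.7%) and 22.9% (17.9 to 28.6%) of thinned early pachytene barcodes, against 5.42% and 4.20% in Sertoli cells. Both late factors were therefore found several-fold more often there than in the somatic cells at equal depth.

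Among the early factors, Hfm1 was found in 27.1% (19.3 to 36.1%) and 26.3% (17.8 to 36.4%) of thinned leptotene-zygotene barcodes, against 3.04% and 0.420% of Sertoli barcodes, and Tex11 in 28.8% and 27.4%, against 1.08% and 0.210%. In early pachytene Tex11 was found in 0 of 210 thinned barcodes under mark 1 and in 1 of 253 under mark 2. With 3 barcodes taken as the limit where 0 were found, 0 of 210 allows a share of up to 1.43%. Ccnb1ip1 was in 13.3% and 14.2% of early pachytene barcodes and in 0 of 209 and 0 of 146 diplotene or dividing barcodes, which allow up to 1.44% and 2.05%. Msh5 was found in 18.5% and 17.6% of barcodes of cells entering meiosis, against 3.04% and 2.10% of Sertoli barcodes. Msh4 and Rnf212 reached at most 9.49% and 8.70% of thinned barcodes in any stage.

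**Figure D4:**
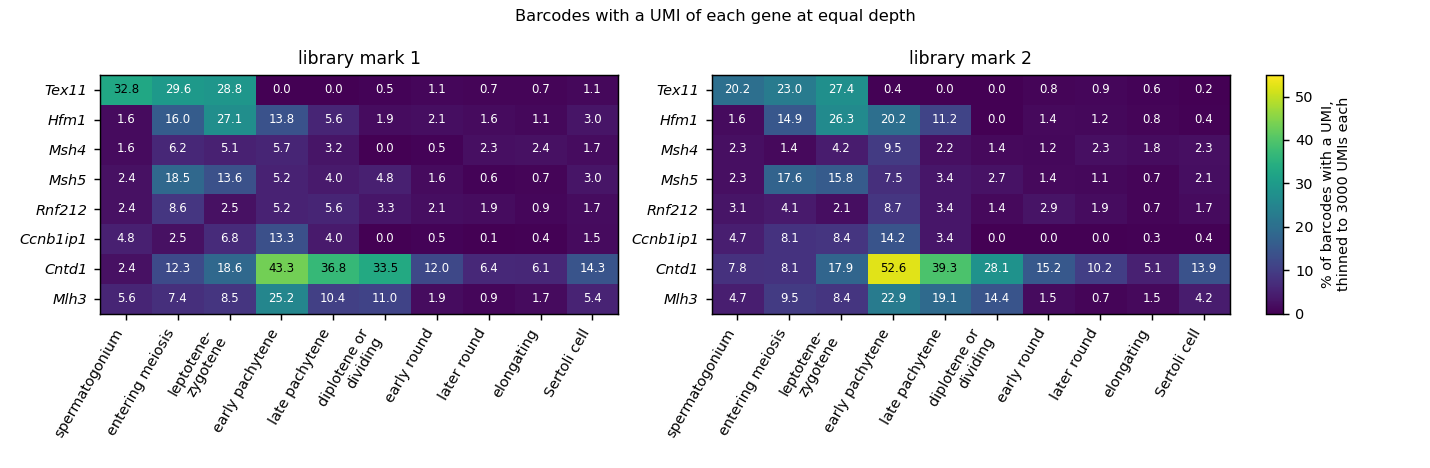
Percentage of barcodes with at least 1 UMI of each gene after thinning every barcode to 3000 UMIs (colour and printed value), by germ stage and in Sertoli cells (x axis), for library mark 1 (left) and mark 2 (right). Cntd1 reaches 43.3% and 52.6% in early pachytene, and Sertoli cells, which do not enter meiosis, stand at the right of each panel.

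Free RNA was estimated from the protamine and other elongating-spermatid transcripts of each gate. Its profile was taken from ungated barcodes, because the lowest barcodes held 3924 and 3529 UMIs and no empty droplets were at hand. Which cells those barcodes hold was not tested, so the shares are only as good as that profile. By this estimate free RNA made up 35.1% and 35.0% of the UMIs of spermatogonia and 38.2% and 37.7% of those of cells entering meiosis. It made up 42.3% and 42.2% in leptotene-zygotene, and 13.6% and 14.5% in early pachytene. The share was higher before pachytene, where the gates also allowed more elongating-spermatid markers, under 600 per 10000 UMIs against under 200 in pachytene. The transcripts used for the estimate are among these markers, so the gates in part set this difference. Elongating-spermatid markers had medians of 204 to 295 per 10000 UMIs in the gates before pachytene and of 91.6 in early pachytene. Sertoli markers had medians of 1.11 to 2.12 and of 0.27. With the estimate subtracted, Hfm1 in leptotene-zygotene was 192 and 164 CPM in place of 116 and 99.0 CPM. Tex11 there was 209 CPM under either mark, beside 196 and 177 CPM in spermatogonia. Under this setting the step of Hfm1 from entry into leptotene-zygotene passed the rule, at a mean log2 ratio of 1.20 for Hfm1, and that of Cntd1 into early pachytene did not, at 0.99 for Cntd1.

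Detection of the paired genes in the same barcode was counted as a description. In early pachytene Msh5 was found in 48.4% of barcodes with Msh4 and 32.2% of those without it under mark 1, and in 41.7% and 31.2% under mark 2. Ccnb1ip1 was found in 72.7% of early pachytene barcodes with Rnf212 and 61.8% of those without it under mark 1, and in 75.7% and 66.1% under mark 2. Barcodes with Rnf212 were also deeper, at medians of 37258 and 29896 UMIs against 30497 and 27510 UMIs without it, and the part of depth in this difference was not tested. For Msh4 the medians were 31992 and 28473 UMIs against 35961 and 27921.5 UMIs.

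The genes most like each member were sought among genes with at least 50 CPM in a stage under both marks, by Pearson's r of log2(CPM + 10) over 18 points, the 9 stages under each mark. The points share 2 libraries and the depth of each stage, and r is given with no test. For Tex11 these were Sms (r = 0.998), Tex13b (0.996), Kmt2a (0.995), Selenom (0.994) and the gate marker Rhox13 (0.994). For Hfm1 they were Ly6k (0.98), Ccdc122 (0.97), Gapvd1 (0.96), Dop1a (0.95) and Iqcb1 (0.95), and for Msh5 Inca1 (0.99), Srgap2 (0.97), Gpr137c (0.97), Pigp (0.96) and Serinc3 (0.96). Ly6k, the nearest to Hfm1, stood at 606 CPM in leptotene-zygotene as the mean of the marks.

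Of the later genes, Ccnb1ip1 was nearest to Ccdc61 (0.99), Tm2d3 (0.98), Rpap3 (0.98), Pcgf5 (0.97) and Anapc16 (0.97), and Rnf212 to Timm10b (0.95), Psmc4 (0.92), Psmg1 (0.92), Psmb4 (0.92) and Ppil3 (0.91). Psmc4 and Psmb4 encode proteasome subunits and Psmg1 an assembly factor of the proteasome. Cntd1 was nearest to Pomt1 (0.98), Ppp1r35 (0.96), Boll (0.96), Tbc1d12 (0.96) and Dhrs7b (0.96), and Mlh3 to Calm2 (0.99), Pcbp1 (0.99), Mllt10 (0.98), Rnf6 (0.98) and Irf3 (0.98). Msh4 had the loosest neighbours, Arhgap33 (0.82), Cfl2 (0.80), Gml2 (0.79), Tob1 (0.79) and Gnas (0.79). Among the 8 genes themselves r ran from -0.31 for Tex11 with Cntd1 to 0.88 for Hfm1 with Msh5, and was 0.52 for Msh4 with Msh5 and 0.82 for Rnf212 with Ccnb1ip1.

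Of 72 pairs of gene and stage the intervals of the marks lay apart in 7, of which 6 were higher under mark 2 and 1 under mark 1. The 6 were Hfm1 in early pachytene, Ccnb1ip1 in early and late pachytene, and Cntd1 in early pachytene, late pachytene and later round spermatids. The 1 was Hfm1 in elongating spermatids. In the early pachytene gate leptotene-zygotene markers had medians of 9.61 and 10.6 per 10000 UMIs, and pachytene markers of 57.4 and 56.8. Their part in these differences was not tested.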

How the data were processed

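The authors deposited 1 table of raw, unscaled UMI counts, with 20476 genes in rows and the barcodes of both libraries in columns. Per the submitters' processing notes Cell Ranger 1.3.1 and Seurat 3.2.2 were used on GRCm38, with no roles given. Mark 1 held 12935 barcodes (median 6061 UMIs, lowest 3924) and mark 2 held 15310 (median 5509, lowest 3529), with 73 barcode sequences in both. The members, gene lists and rules were chosen with earlier results of these data known, and the gate cuts from the markers alone.

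Marker UMIs per 10000 of a barcode gave the gates. The cuts were 6 for spermatogonia, 10 with at least 2 Stra8 UMIs for cells entering meiosis, 14 for leptotene-zygotene, 30 for pachytene (divided at 6 of the leptotene-zygotene markers), 14 for diplotene or dividing cells, 10 for round spermatids (divided at 16 of the later markers), 1000 for elongating spermatids and 12 for Sertoli cells. In every gate up to the later round spermatids the median of the Leydig, macrophage, T or NK, stromal, endothelial and erythroid markers was 0. Barcodes of more than 1 gate (369) were left out. No doublet caller was run, so doublets within a gate remain.

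UMIs were summed per stage and mark and scaled to CPM. Exact Poisson, conditional binomial and Clopper-Pearson intervals have a level of 95%. The limits given where 0 barcodes held a gene are 3 over the number of barcodes, not Clopper-Pearson bounds. The size rule was tested on simulated counts. With 200 genes changed 4-fold, it called 97.8% of the 180 changed genes measured in early pachytene over leptotene-zygotene and 0.263% of 10259 unchanged ones. The recovery holds for 4-fold changes only, and members called at this step, such as Cntd1 and Msh5, lay nearer to 2-fold. Free RNA was profiled from ungated barcodes under 5000 UMIs with at least 300 elongating markers per 10000. The genes named are the 8 members, other crossover genes that passed the rule with at least 100 UMIs in their highest stage (Exo1, Prr19, Cdk2, Brip1, Blm, Fancm and Slx4), and the 5 genes of highest Pearson correlation with each member. Of the other crossover genes, 2 enter the counts and are not reported singly here. Alternatives were other cuts, TMM factors (edgeR 4.0.16), DESeq2 1.42.0 size factors, barcode filters, free RNA subtraction, each mark alone and other thresholds. Python 3.11.15, numpy 2.4.6, scipy 1.17.1, pandas 2.3.3 and R 4.3.3 were used. Positions come from GENCODE M21 of GRCm38. Protein sequences were not used here.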

Additional observations from a re-analysis of the deposited data

Results flagged for a closer look

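Barcodes that no stage gate took made up 52.951% of the pool, at a median of 4480 UMIs, and entered none of the comparisons. All 8 genes had counts there above the limit that a count of 0 allows, which is why they are listed here. That limit was 0.0702 and 0.0639 CPM under marks 1 and 2. Passing so low a limit shows nothing particular to the 8, and the share of all genes above it was not counted. By the mean of the marks the level was 2.97 CPM for Tex11, 10.3 CPM for Hfm1, 11.97 CPM for Msh4, 6.02 CPM for Msh5, 8.22 CPM for Rnf212, 4.15 CPM for Ccnb1ip1, 59.9 CPM for Cntd1 and 23.3 CPM for Mlh3. The level of Cntd1 in these barcodes, 59.4 and 60.4 CPM under marks 1 and 2, stands beside 48.2 and 53.4 CPM in Sertoli cells. Which cells these barcodes hold was not tested.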

How the results depend on the processing

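Alternatives changed 1 choice at a time. Of the counts of called genes and of genes highest in the stage reported, 193 values stayed within 1.5 times the reported one and 53 did not. Of the values for single genes 876 kept their call, 38 gained one, 23 lost one and 15 shares moved, and none called as reported turned its direction. No paired analysis was possible because each genotype has 1 library and no replicate numbers.

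The number of the 8 genes called in leptotene-zygotene over entry, 1 as reported, was 0 with gate cuts 1.5 times higher or divided by 1.5, with the mean over barcodes and at 3-fold, and 2 with TMM factors, free RNA subtracted, 1.5-fold and either mark alone. Early pachytene over leptotene-zygotene, 4 as reported, gave 1 with barcodes of at least 10000 UMIs and 1 at 3-fold. On entry the 2 became 1 with at least 10000 UMIs, and in diplotene or dividing cells the 2 became 4 at 1.5-fold. Later round over early round spermatids, 0 as reported, gave 1 with mark 1 alone and 2 at 1.5-fold. Elongating over later round spermatids, 1 lower as reported, gave 2 higher and 0 lower with TMM factors and with DESeq2 size factors, 1 higher and 1 lower (2 in all) with the mean over barcodes, 2 lower with cuts 1.5 times higher, at least 10000 UMIs and mark 2 alone, 4 lower at 1.5-fold and 0 at 3-fold. The number highest in the stage reported, 8, lay between 6 and 8.

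Of the 18 other genes, the number called on entry, 1 as reported, was 0 with cuts divided by 1.5, without the 2% of barcodes with the most UMIs and at 3-fold, 2 with free RNA subtracted, no minimum of UMIs and 1.5-fold, and 3 with mark 1 alone. In leptotene-zygotene the 2 became 0 with cuts divided by 1.5 and at 3-fold, 1 with at least 10000 UMIs, and 5 with mark 2 alone and at 1.5-fold. In late pachytene the 6 became 3 with cuts 1.5 times higher or divided by 1.5 and at 3-fold. In diplotene or dividing cells the 4 became 1 with cuts 1.5 times higher, DESeq2 size factors and 3-fold, 2 with cuts divided by 1.5 and pachytene divided at 5, and 8 with no minimum. In early round spermatids the 7 became 4 with cuts 1.5 times higher and the mean over barcodes and 3 at 3-fold. In later round spermatids the 0 became 1 with mark 1 alone and with no minimum, and 2 with mark 2 alone and at 1.5-fold. In elongating spermatids the 7, 1 higher and 6 lower, became 4 with TMM factors, 2 higher and 2 lower, and 3 at 3-fold. The causes were not tested.

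Free RNA was not estimated from round spermatids on, so that setting gives no value there. Dividing pachytene at 5 or 8 was chosen after seeing the data. As shares of all barcodes with a UMI as deposited, Cntd1 in early pachytene was 99.4% and Hfm1 in leptotene-zygotene 49.3%. Depth limits Msh4 and Rnf212 before pachytene, where their levels rest on 3 to 25 UMIs a stage and mark. Barcodes of more than 1 gate were left out, and doublets within a gate remain.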
